A study of Arabidopsis thaliana with 24 samples.

Results

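The RCI2 genes of Arabidopsis thaliana encode very small, strongly hydrophobic proteins of the plasma membrane. They were followed here in rosette leaves of 2 accessions under mild soil drying. Members were chosen by locus identifier: RCI2A (AT3G05880), RCI2B (AT3G05890) and the homologues AT4G30650, AT4G30660, AT2G24040, AT1G57550 and AT2G38905. All 7 were present among the 20514 loci measured, and 6 of them were among the 12308 loci bright enough to be tested. The family was taken up with earlier results of these arrays known. Among them was the lower AT4G30650 signal of Kas-1 leaves on dry than on wet soil. That contrast is therefore given for description, with no test, and so is every other value of AT4G30650 that uses the Kas-1 arrays. The gene lists and markers used below were also chosen with such results known. Counts of calls among members and lists carry that limit.

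RCI2 proteins (RARE-COLD-INDUCIBLE 2) belong to a family found in plants, fungi and bacteria. Its yeast member, PMP3, is needed for a normal membrane potential, and yeast cells that lack it take up excess sodium. In Arabidopsis, RCI2A and RCI2B transcripts are known to accumulate in the cold and after dehydration or abscisic acid (ABA), and RCI2A limits sodium accumulation under salt. In the RefSeq gene table for TAIR10.1, AT4G30650 and AT4G30660 are next to each other on chromosome 4. RCI2A and RCI2B lie close together on chromosome 3, with 1 annotated locus between them. Probe sequences were not used here, so signal cannot be divided between similar copies by sequence, and an accession difference is a difference of array signal.

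Total RNA of rosette leaves was labelled with biotin and hybridised, 1 array per sample, in 4 groups of 6: Tsu-1 in dry soil, Tsu-1 in wet soil, Kas-1 in dry soil and Kas-1 in wet soil. Tsu-1 and Kas-1 are natural accessions, and no group carries a transgene or mutation. All plants grew 1 to a pot in a ceramic medium with a photoperiod of 10 h, and dry pots were brought down stepwise to a target near 50% of their water by day 5, while wet pots were held near 90%. The design text names 3 biological replicates per combination where 6 arrays exist, so the errors below are between arrays and may be partly technical.

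The unit throughout is log2 of the deposited expression value. Arrays of a group correlated at 0.872 to 0.995 over the tested loci. Kas-1 dry 4 and 5 were almost identical (0.995). The arrays that stood apart were 2 of Kas-1 dry (numbers 1 and 2) and 2 of Tsu-1 wet (numbers 7 and 9), with array weights of 0.283 to 0.416 where the highest weight was 2.51. The leaf label was borne out by mesophyll markers, of which 4 of 8 were in the table, with locus means of 11.8 to 13.5. By contrast, 0 of 6 root and 0 of 4 flower markers passed the brightness filter. The brightest root marker, with a mean of 6.193, fell just under that filter (6.195).

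Leaving AT4G30650 aside, Tsu-1 leaves had more signal than Kas-1 leaves for 3 of the 5 other tested RCI2 genes, where 23.3% of all tested loci were called higher in Tsu-1 and 47.7% were called in either direction. RCI2A was 1.62-fold higher, AT2G24040 1.39-fold and AT4G30660 1.32-fold, averaged over the soils, and each differed in wet as well as in dry soil. RCI2B and AT1G57550 were not called. Soil drying called no member in Tsu-1, where 0.00812% of all loci were called.

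**Figure D1:**
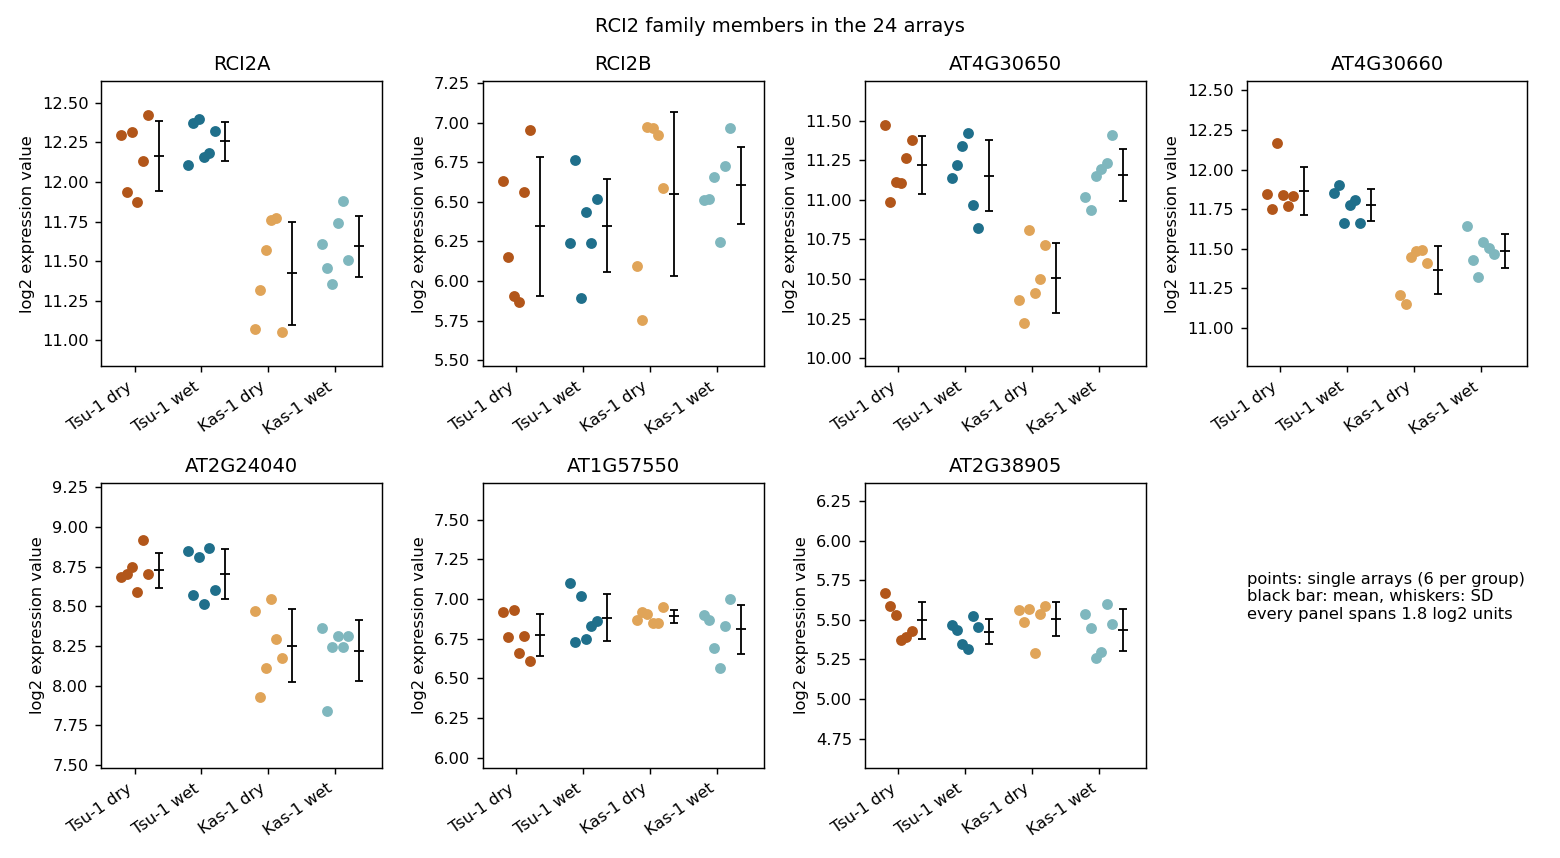
Log2 expression value (vertical axis) of the 7 RCI2 family members in each array, by group, with 6 points per group and black bars for mean and SD. RCI2A, AT4G30660 and AT2G24040 sit higher in both Tsu-1 groups than in both Kas-1 groups, AT4G30650 is low in Kas-1 dry alone, and AT1G57550 and AT2G38905 lie at like levels in all groups.

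The first question was how the accessions differ. RCI2A, the member best known from cold acclimation and salt stress, spanned, in Tsu-1, 11.87 to 12.42 on dry soil (median 12.21) and 12.10 to 12.39 on wet soil (median 12.25), against 11.05 to 11.77 on dry soil (median 11.44) and 11.36 to 11.88 on wet soil (median 11.56) in Kas-1. In each soil all 6 Tsu-1 arrays lay above all 6 Kas-1 arrays. The accessions did not overlap, in either direction, for 11.6% of tested loci in dry and 12.3% in wet soil. Over both soils 11 of 12 Tsu-1 arrays lay above every Kas-1 array, and Tsu-1 dry 4 (11.872) fell just under Kas-1 wet 11 (11.876). Averaged over the soils, the log2 difference, Tsu-1 minus Kas-1, was 0.70 (SE 0.09, limma adjusted p = 2.01e-06). It was 0.74 in dry soil (SE 0.13, limma adjusted p = 1.89e-04) and 0.66 in wet soil (SE 0.13, limma adjusted p = 6.19e-04).

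AT4G30660, a homologue annotated in the same family, was the member with the cleanest separation. It spanned, in Tsu-1, 11.75 to 12.17 on dry soil (median 11.84) and 11.66 to 11.90 on wet soil (median 11.79), against 11.15 to 11.49 on dry soil (median 11.43) and 11.33 to 11.64 on wet soil (median 11.49) in Kas-1. All 12 Tsu-1 arrays lay above all 12 Kas-1 arrays, a separation found for 4.21% of the tested loci. The averaged log2 difference was 0.40 (SE 0.06, limma adjusted p = 9.42e-06). In dry soil it was 0.50 (SE 0.08, limma adjusted p = 9.36e-05). In wet soil it was 0.29 (SE 0.08, limma adjusted p = 0.0109), a call that ended when arrays with consecutive numbers were averaged to 3 per group (limma adjusted p = 0.0515).

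AT2G24040, another homologue, spanned, in Tsu-1, 8.59 to 8.92 on dry soil (median 8.70) and 8.51 to 8.87 on wet soil (median 8.71), against 7.92 to 8.54 on dry soil (median 8.23) and 7.84 to 8.36 on wet soil (median 8.28) in Kas-1. The accessions did not overlap within either soil, a state reached by 11.6% of tested loci in dry and 12.3% in wet soil. The log2 difference was 0.48 averaged over the soils (SE 0.07, limma adjusted p = 1.71e-05), 0.47 in dry soil (limma adjusted p = 0.00163) and 0.48 in wet soil (limma adjusted p = 0.0015).

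AT4G30650, the neighbour of AT4G30660, had another pattern. It ran from 10.98 to 11.47 in Tsu-1 dry (median 11.19), 10.82 to 11.42 in Tsu-1 wet (median 11.18), 10.22 to 10.81 in Kas-1 dry (median 10.45) and 10.93 to 11.41 in Kas-1 wet (median 11.17). The 6 Kas-1 dry arrays were the 6 lowest of all 24, and the other 3 groups overlapped with one another. The log2 difference between the accessions was 0.72 in dry soil (SE 0.12). In wet soil it was -0.0038 with a 95% interval of -0.25 to 0.24, so a difference of about that size either way could not be seen there. Averaged over the soils it was 0.36 (SE 0.08), a mean of 2 unlike values.

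RCI2B, like RCI2A a cold-induced gene, had a point value toward Kas-1 that did not pass the test. It spanned, in Tsu-1, 5.87 to 6.95 on dry soil (median 6.36) and 5.90 to 6.76 on wet soil (median 6.34), against 5.75 to 6.97 on dry soil (median 6.75) and 6.25 to 6.97 on wet soil (median 6.59) in Kas-1. All 4 groups overlapped. RCI2B was the dimmest tested member. Its values reached below the brightness filter of 6.19 in Tsu-1 dry, Tsu-1 wet and Kas-1 dry. With the filter set at the 60th percentile, RCI2B and AT1G57550 were no longer tested. The averaged log2 difference was -0.23 (SE 0.15, 95% interval -0.54 to 0.08, limma adjusted p = 0.215). Its value in dry soil was -0.20 (limma adjusted p = 0.498), and it became -0.52 and was called (limma adjusted p = 0.0276) without the 4 arrays that stood apart. In dry soil those arrays were Kas-1 dry 1 and 2, which had the lowest RCI2B values of their group (6.10 and 5.75).

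AT1G57550 and AT2G38905, homologues of which only AT2G38905 had weak signal on these arrays, gave no accession difference that passed the test. AT1G57550 had group means of 6.77 ± 0.13 in Tsu-1 dry, 6.88 ± 0.15 in Tsu-1 wet, 6.89 ± 0.04 in Kas-1 dry and 6.81 ± 0.16 in Kas-1 wet (SD, n = 6 each). Its averaged log2 difference was -0.02, with a 95% interval of -0.14 to 0.09 (limma adjusted p = 0.767). AT2G38905 stayed below the brightness filter of 6.19, with group means of 5.50 ± 0.12 in Tsu-1 dry, 5.43 ± 0.08 in Tsu-1 wet, 5.51 ± 0.11 in Kas-1 dry and 5.44 ± 0.13 in Kas-1 wet (SD, n = 6 each). When all loci were tested with no filter, its averaged difference was -0.01 (95% interval -0.11 to 0.09, limma adjusted p = 0.898). The lower quartile of all locus means was 5.21, so its signal lay close to the dim end of the array.

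**Figure D2:**
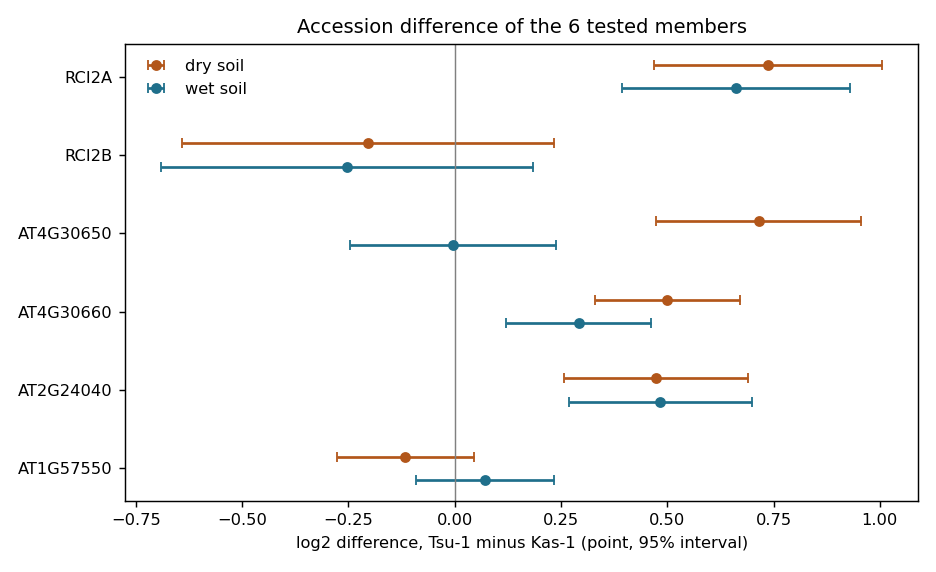
Log2 difference, Tsu-1 minus Kas-1 (horizontal axis), of the 6 tested members in dry and in wet soil, with points for the estimate and bars for the 95% interval. RCI2A, AT4G30660 and AT2G24040 lie right of 0 in both soils. AT4G30650 lies right of 0 in dry soil and at 0 in wet soil, and is shown as a description.

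Without AT4G30650, the test called 3 of 5 members averaged over the soils, all higher in Tsu-1, beside 47.7% of all loci called and 23.3% called higher. In dry soil it called 3 of 5, all higher, beside 30.5% of all loci (16.8% higher and 13.8% lower in Tsu-1). In wet soil it called 3 of 5, all higher, beside 30.1% of all loci (13.2% higher and 16.9% lower in Tsu-1). The median log2 difference of these 5 members was 0.40 averaged over the soils, against 0.0039 for all tested loci. The members are few and were chosen with earlier results of these data known. Whether their share differs from that of all loci was not tested.

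The mean over markers of vascular tissue was higher in Tsu-1, by a narrow margin between the closest arrays. The mean over the 6 vascular markers in the table, 5 of them bright enough to test, ran between 8.12 and 8.76 in Tsu-1 dry and between 8.26 and 8.60 in Tsu-1 wet, against 7.86 to 8.02 in Kas-1 dry and 7.56 to 8.10 in Kas-1 wet. Their part in the RCI2 differences was not tested. In whole leaves, fewer cells of a type and less RNA per cell cannot be told apart. The mean over the epidermis markers overlapped between all groups, from 7.86 to 9.18 over the 24 arrays. So did the mean over 5 guard cell markers, 2 of them bright enough to test, from 5.85 to 6.41.

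The second question was the response to drying. In Tsu-1 the test called 0 of the 6 members, where 0.00812% of all loci were called. An unadjusted p under 0.05 in limma was reached by 0 of the 6, beside 591 of the 12308 loci. The log2 changes, dry minus wet soil, were -0.09 for RCI2A (95% interval -0.36 to 0.17), -0.01 for RCI2B (-0.44 to 0.43), 0.07 for AT4G30650 (-0.17 to 0.31) and 0.09 for AT4G30660 (-0.08 to 0.26). For AT2G24040 the change was 0.02 (-0.19 to 0.24), and for AT1G57550 it was -0.11 (-0.27 to 0.06). The interval of RCI2B was the widest, and those of the other 5 reached no further than -0.36 and 0.31. The dry and wet arrays of Tsu-1 overlapped for all 7 members.

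In Kas-1, AT4G30650 was lower in dry soil. Its mean was 10.50 ± 0.22 in Kas-1 dry and 11.16 ± 0.17 in Kas-1 wet (SD, n = 6 each), a log2 change of -0.65 (SE 0.12), or 1.57-fold lower. All 6 dry arrays lay below all 6 wet arrays, where 1.14% of the tested loci had no overlap in either direction. It was the 1 member past the threshold used for calls, beside 0.0731% of all loci, and it was past it in 5 of 11 other settings and in 11 of 24 fits with 1 array left out. Nothing is read from these counts, because this contrast drew attention to the gene. Without Kas-1 dry 1 and 2, among the 4 arrays that stood apart, the change was -0.55, and with Kas-1 dry 4 and 5 counted as 1 array it was -0.64. The other members had log2 changes in Kas-1 of -0.17 for RCI2A (SE 0.13), -0.12 for AT4G30660 (SE 0.08), -0.05 for RCI2B (SE 0.21), 0.03 for AT2G24040 (SE 0.10) and 0.08 for AT1G57550 (SE 0.08). The sign of the RCI2B change rested on the arrays that stood apart, since it was 0.10 without Kas-1 dry 2 and 0.26 without all 4.

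**Figure D3:**
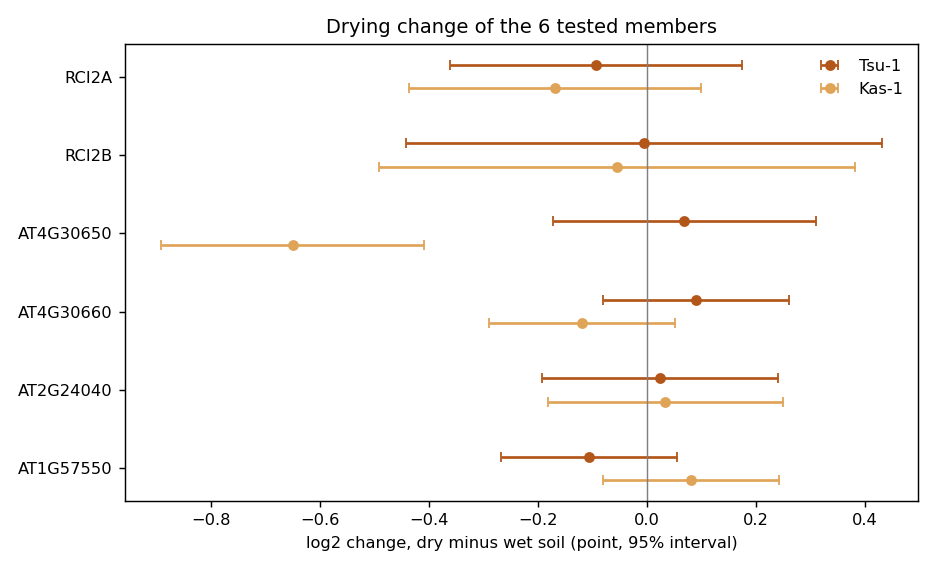
Log2 change, dry minus wet soil (horizontal axis), of the 6 tested members in Tsu-1 and Kas-1, with points for the estimate and bars for the 95% interval. All intervals include 0 except that of AT4G30650 in Kas-1, which is shown as a description.

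The drying change of AT4G30650 in Tsu-1 minus that in Kas-1 was 0.72 (SE 0.17), an estimate that shares its Kas-1 arrays with the contrast above and carries no test here. For the other tested members the same difference was 0.21 for AT4G30660 (SE 0.12), 0.08 for RCI2A (SE 0.18), 0.05 for RCI2B (SE 0.30, and -0.40 without the 4 arrays), -0.01 for AT2G24040 (SE 0.15) and -0.19 for AT1G57550 (SE 0.11). Averaged over the accessions, drying gave -0.29 for AT4G30650 (SE 0.08) and between -0.13 and 0.03 for the other 5. Of these 5, limma called 0, beside 0.13% of all loci (0.0812% higher and 0.0487% lower in dry soil). At an unadjusted p under 0.05 there were 0 of the 5, beside 1151 of the 12308 loci.

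The members varied differently among the arrays of a group. The SD between arrays within groups was 0.39 for RCI2B, larger than for 86.3% of tested loci, 0.23 for RCI2A, 0.20 for AT4G30650, 0.18 for AT2G24040 and 0.13 for both AT4G30660 and AT1G57550, where the median locus had 0.20. RCI2B followed the main axis of variation within groups, the first principal component of the deviations from the group means, which held 46.9% of that variation. Its deviations had a Pearson r of -0.77 and a Spearman rho of -0.83 with the array scores over 24 arrays. RCI2B was lowest in Kas-1 dry 2 (5.75), the array with the highest score (0.41), and low in Tsu-1 wet 9 (5.90, score 0.39). Other arrays followed the axis less closely: Tsu-1 dry 4 had 5.87 at a score of 0.12, Tsu-1 dry 3 had 5.90 at 0.06, and Tsu-1 wet 7 had 6.24 at 0.35. RCI2A had an r of -0.33 with that axis, AT4G30650 of -0.44, AT4G30660 of -0.36, AT2G24040 of -0.03 and AT1G57550 of 0.45. These correlations are descriptions, over points that share arrays and scaling, and the 24 arrays hold 4 groups whose means were removed.

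**Figure D4:**
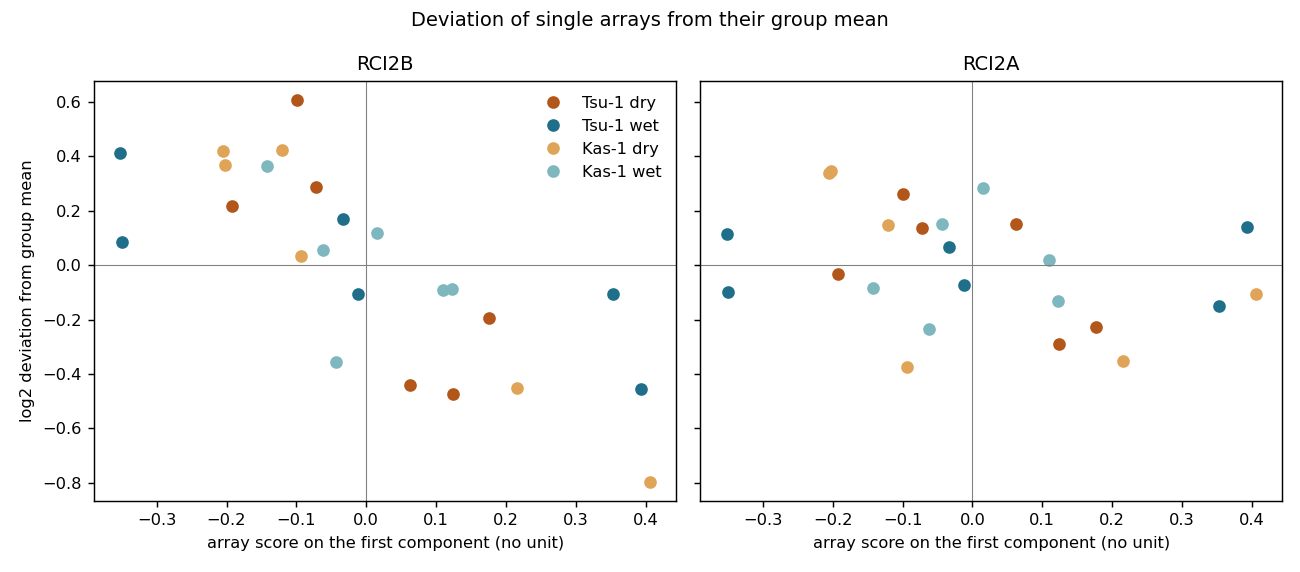
Deviation of each array from its group mean in log2 units (vertical axis) against the array's score on the first component of variation within groups (horizontal axis), for RCI2B on the left and RCI2A on the right, coloured by group. RCI2B falls along the axis (r = -0.77), while RCI2A scatters more widely (r = -0.33).

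Pairs of members moved together only loosely. Within groups r was 0.47 between RCI2A and RCI2B, 0.46 between RCI2A and AT4G30660, 0.48 between RCI2B and AT4G30650 and 0.19 between the neighbours AT4G30650 and AT4G30660. Taken group by group, the r of RCI2A with RCI2B ranged from -0.23 in Kas-1 wet to 0.67 in Kas-1 dry, so no pair value stands for all groups. AT4G30650 was closer to COR15A, a cold-induced gene whose stromal product protects chloroplast membranes on freezing. Their r was 0.69 over 24 arrays, and 0.70 in Tsu-1 dry, 0.68 in Tsu-1 wet, 0.82 in Kas-1 dry and 0.86 in Kas-1 wet, with 6 arrays each. With COR15B, the adjacent copy, r was 0.56 over 24 arrays. The other cold genes compared were less like it: r was 0.35 with COR413-PM1 (group values from -0.02 to 0.64) and 0.19 with RD29A (group values from -0.58 to 0.63, the lowest in Kas-1 wet).

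The 3 tested loci most like each member, by the r of the deviations over 24 arrays, were not members of the family. RCI2A was nearest to THI2.2, a thionin gene (0.80), LGT9, a glycosyltransferase gene (0.80), and IAA6, an auxin-response repressor gene (0.79). RCI2B was nearest to GER3, a germin-like protein gene (0.89), PRP2, a proline-rich cell wall protein gene (0.88), and XYP2, a xylogen-type protein gene (0.86). AT4G30650 was nearest to AT1G68220 (0.81), DWA2, a WD-repeat protein gene of ABA signalling (0.81), and NUDX1, a nudix hydrolase gene (0.80). AT4G30660 was nearest to IAA1, another auxin-response repressor gene (0.82), SQE2, a squalene epoxidase gene (0.79), and AT3G21390 (0.76). AT2G24040 was nearest to AT2G45990 (0.86), AT3G01740 (0.83) and emb2410 (0.81), and AT1G57550 to CSLD4, a cellulose synthase-like gene (0.79), RGTB1, a Rab prenylation gene (0.79), and NAC084 (0.77). Each was picked as the highest r among all tested loci, so its size is partly a product of that choice.

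Other cold and dehydration genes gave the setting for the accession difference. Of 25 listed genes, 20 were tested. Averaged over the soils 16 were called higher and 2 lower in Tsu-1, with a median log2 difference of 0.62. Over all loci 47.7% were called, 23.3% higher and 24.5% lower. RD29A, a dehydration- and cold-induced gene, was 4.35-fold higher (2.12, SE 0.25), COR413-IM1, a chloroplast envelope protein gene, 3.62-fold (1.86), LTI30, a dehydrin gene, 2.75-fold (1.46), and CBF3, a cold-response transcription factor gene, 2.69-fold (1.43). COR15A was higher by 1.01, COR15B by 0.68 and COR413-PM1, a plasma membrane protein gene, by 0.35, all called by limma. The 2 called lower, chosen after their values were seen, were ICE1, an upstream regulator of CBF genes (-0.36), and COR27 (-0.51). KIN1 and COR6.6 had no entry among the measured loci under their locus identifiers, so they have no values here.

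On drying, the same list had 0 genes called by limma in Tsu-1, beside 0.00812% of all loci. At an unadjusted p under 0.05 in limma there were 4 of the 20 tested, beside 591 of the 12308 loci. These were CBF3 (0.98), CBF2 (0.56) and CBF1 (0.49), higher in dry soil, and COR15B, lower. The median log2 change of the list in Tsu-1 was 0.05 over the 20 tested. In Kas-1, COR15B was called lower (-0.90), beside 0.0731% of all loci. There 4 of 20 had positive changes and the median was -0.14, against -0.04 for all tested loci. COR413-PM1 had a log2 change of -0.56 (SE 0.11) and RD29A of -0.65 (SE 0.35) in Kas-1, neither called, and COR15A had -0.16 (SE 0.26). In Tsu-1 COR15B had -0.56 (SE 0.15, limma adjusted p = 0.290), COR413-PM1 -0.11, COR15A -0.12 and RD29A 0.04. Averaged over the accessions COR15B was called lower on drying (-0.73, SE 0.10, limma adjusted p = 0.00427), beside 0.0487% of all loci called lower. Its drying change in Tsu-1 minus that in Kas-1 was 0.34 (SE 0.21), not called.

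Genes of ion balance at the membrane, the process in which yeast PMP3 acts, were set beside the family. Of 8 plasma membrane proton pump genes 6 were tested, and averaged over the soils AHA3 was higher in Tsu-1 (0.67, SE 0.10, limma adjusted p = 1.27e-05), AHA11 was lower (-0.32, SE 0.11, limma adjusted p = 0.0174) and 4 were not called. In that comparison 47.7% of all loci were called, 23.3% higher and 24.5% lower. Of 6 sodium transport genes 4 were tested, and averaged over the soils all 4 were higher in Tsu-1, beside 23.3% of all loci called higher. In dry soil 3 of the 4 were called higher, beside 16.8% of all loci. In wet soil 1 of the 4, SOS3, was called higher, beside 13.2%. By their averaged log2 differences they were SOS3, a calcium sensor gene (1.22, SE 0.17), NHX2 (0.55) and NHX1 (0.34), vacuolar exchanger genes, and SOS1, the plasma membrane sodium exporter gene (0.22, SE 0.08, limma adjusted p = 0.0288). None of these 10 tested pump and sodium transport genes was called by limma on drying in either accession. Over all loci 0.00812% were called in Tsu-1 and 0.0731% in Kas-1. At an unadjusted p under 0.05 there were 0 of the 10 in Tsu-1 and 1 in Kas-1.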

How the data were processed

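For 24 arrays the authors deposited processed values on a log2 scale, 1 per locus and array. That scale was inferred from their range, 3.12 to 14.2. The submitters' processing notes name MAS5, with no version or role, so background correction and scaling are not given in the sources used here. RefSeq names for assembly TAIR10.1 were found for 20290 loci and not for 224, and that table was used for names and neighbours alone. Groups and array numbers come from the sample titles.

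Loci with a mean above the 40th percentile (6.19) were fitted with limma 3.58.1 in R 4.3.3, as 4 group means with an intensity trend, with Benjamini-Hochberg adjustment over the 12308 loci of each comparison. Calls needed an adjusted p below 0.05, and intervals are 95%. The number of arrays limits the precision. The members, the 3 gene lists (39 genes, 30 tested), the markers and the alternatives were chosen with earlier results of these data known. The rule for named genes took all members, the 3 loci most like each tested member and, from each list and comparison, up to 4 called genes of largest change, with 6 cold genes given whatever their values. The fit was checked on simulated data with independent noise for each locus and changes in Tsu-1 dry alone. That check does not cover variation that loci share between arrays. Other settings were another normalisation, centring, filter, weights, trend, sample set and number of independent arrays, a replicate block, and each array left out in turn.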

Additional observations from a re-analysis of the deposited data

Results flagged for a closer look

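Over the 28 combinations of member and group, 3 held an array far from the other 5, where chance gives about 1 in 20. AT4G30660 was 12.17 in Tsu-1 dry 3, and the next highest Tsu-1 dry array had 11.85. AT2G24040 was 7.84 in Kas-1 wet 8, and the next lowest Kas-1 wet array had 8.24. AT2G38905, below the brightness filter, was 5.29 in Kas-1 dry 4, and the next lowest Kas-1 dry array had 5.49, although that array was otherwise almost identical to Kas-1 dry 5. Without Tsu-1 dry 3 the dry soil difference of AT4G30660 between the accessions was 0.44, and without Kas-1 wet 8 the wet soil difference of AT2G24040 was 0.41, both still called by limma.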

How the results depend on the processing

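With AT4G30650 counted but not read as tested, members past the threshold between the accessions under the other settings were 4 averaged over the soils, 4 to 5 in dry soil (RCI2B added without the 4 arrays that stood apart) and 2 to 3 in wet soil (AT4G30660 lost when consecutive numbers were averaged). No member was called for drying in Tsu-1 under any of them. In Kas-1 the count on drying was 0 in place of 1 with median centring, no filter, only the compared arrays, arrays averaged to 3 per group either way or Kas-1 dry 4 and 5 averaged, and 0 to 1 when single arrays were left out, while the AT4G30650 change stayed between -0.71 and -0.55. For the difference in response between the accessions the count past the threshold was 1 in place of 0 with array weights and without the 4 arrays that stood apart, and as it is AT4G30650, nothing is read from it. In the accession and Tsu-1 drying comparisons these values changed sign. RCI2B on drying in Tsu-1 was 0.0014 with quantile normalisation, 0.0032 with median centring and -0.13 to 0.090 with single arrays left out. AT4G30650 between accessions in wet soil was 0.050, 0.0037 and -0.058 to 0.062 in the same settings. AT2G24040 on drying in Tsu-1 was -0.015 to 0.057 with single arrays left out, and AT1G57550 between accessions in wet soil was -0.017 without the 4 arrays. The cause was not tested. Over all loci, calls ranged from 0 to 44 for drying in Tsu-1, 0 to 1003 in Kas-1, 5 to 102 averaged, and 0 to 362 for the difference in response.

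The numbers in the titles did not pair the accessions: the correlation of deviations exceeded 0.1 in 4 of 12 same-numbered pairs (-0.40 to 0.55). With the number as a replicate block, 4 members, AT4G30650 counted, were past the threshold averaged over the soils, 4 in dry soil and 3 in wet soil, and over all loci 5661 were called in place of 5875 in the averaged comparison.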

Other observations

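The members AT1G57550 and AT2G38905, the second below the brightness filter, had the highest within-group r of any pair of members, close to those of the next pairs. It was 0.51 over 24 arrays, and 0.70 in Tsu-1 dry, 0.08 in Tsu-1 wet, 0.50 in Kas-1 dry and 0.72 in Kas-1 wet. AT2G24040 ran against COR413-PM1 in some groups and not in others, with r of 0.16 in Tsu-1 dry, -0.80 in Tsu-1 wet, -0.91 in Kas-1 dry and 0.22 in Kas-1 wet, 6 arrays each. These are values with no test.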
